A study of Mus musculus with 16 samples.

Results

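The kinase mTOR, encoded by Mtor, works in 2 protein complexes. Complex 1 holds Raptor (Rptor), which brings substrates such as the S6 kinases and the 4E-binding proteins to the kinase and so couples nutrients and growth factors to protein synthesis. Complex 2 holds Rictor (Rictor), Sin1 (Mapkap1) and either Protor-1 (Prr5) or Protor-2 (Prr5l), and phosphorylates kinases of the AKT, SGK and PKC families. Both complexes contain mLST8 (Mlst8), which binds the kinase domain, and Deptor (Deptor), an inhibitor. In striatal neurons the pathway is known to lie downstream of dopamine receptors and to regulate local translation at synapses, and the study's title names it in relation to the motor side effects of antipsychotic drugs.

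The 8 genes were identified by the probe sets whose only gene symbol in the platform's annotation was a member, which gave 20 of 45037 probe sets and 8 of 17097 named genes. Rptor alone is specific to complex 1 and had 2 probe sets. The shared subunits had 9 (Mtor 3, Mlst8 2, Deptor 4) and the complex 2 subunits 9 (Rictor 5, Mapkap1 2, Prr5 1, Prr5l 1). A further probe set that names Rptor together with its antisense gene Rptoros was not used. Probe sets of the same gene read the same RNA samples and are not replicates. All 20 probe sets entered the tests, with no filter on low values.

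Striatal RNA of 16 male mice aged 7 to 8 weeks was hybridised to Affymetrix perfect-match arrays, each mouse on its own array. A/J and DBA/2J are inbred strains, here A/JOlaHsd and DBA/2JRccHsd. Risperidone, an antipsychotic that blocks D2 dopamine receptors, was injected intraperitoneally in 4 mice per strain for 3 days (1 mg/kg, once a day). The remaining 4 per strain carry the label untreated, although the common protocol names saline injections, and are called control mice. Values are log2 expression levels after RMA, so a difference of 1 is a doubling; whether fewer cells of a type or less RNA per cell lowers a level cannot be told apart in bulk tissue. Having 4 arrays per group limits the precision of every value. A probe set is a group of short probes that read 1 stretch of transcript, and its level is not comparable between genes.

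Some arrays stood apart. The share of DBA/2J signal over strain marker probe sets was -2.30% to 0.944% in A/J control mice and 96.1% to 103.2% in DBA/2J control mice. In A/J risperidone replicates 1, 2 and 4 it was 27.9%, 36.2% and 39.1%, and in replicate 3 it was 0.584%; DBA/2J risperidone arrays lay between 87.6% and 101.6%. DBA/2J control replicate 4 correlated with the other arrays at 0.970 to 0.979. Of the 10 striatal projection neuron markers listed, 8 had a probe set. Penk ranged from 6.13 to 7.98 and Ppp1r1b from 5.99 to 7.57 over the arrays. The Drd2 probe set was dim, at 3.62 to 4.90, with a mean above that of 17.2% of all probe sets. The brightest of the 8, Pde10a, had a mean above that of 85.3%. Of the 6 measured cortex markers, the dimmest, Emx1, had a mean above that of 45.5% of all probe sets. The next, Neurod6, was above 87.8%, and the brightest, Slc17a7, above 97.7%. Levels are not comparable between genes, and how much cortex the samples held was not tested.

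RefSeq promoter windows (GRCm38.p6) were found for 7 of the 8 genes, 11 windows in all; Deptor had none in the table. The windows of Prr5l, the member with the widest range over the arrays, are shown beside that of Mtor, whose brightest probe set had the narrowest. Each sequence is the 250 bases before an annotated start, 5′ to 3′ on the gene's strand, from the C57BL/6J reference and so from neither strain studied. Capitals mark the GC box (GGGCGG), the CCAAT box (CCAAT) and the TATA box (TATAAA) or their reverse complement, which did not overlap each other.
Mtor chr4:148448332-148448581 (+): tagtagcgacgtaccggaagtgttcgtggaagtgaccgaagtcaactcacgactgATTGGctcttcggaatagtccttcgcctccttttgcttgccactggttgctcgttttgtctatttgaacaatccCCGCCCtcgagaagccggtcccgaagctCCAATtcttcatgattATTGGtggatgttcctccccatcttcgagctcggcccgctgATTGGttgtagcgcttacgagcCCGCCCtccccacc
Prr5l chr2:101883028-101883277 (-): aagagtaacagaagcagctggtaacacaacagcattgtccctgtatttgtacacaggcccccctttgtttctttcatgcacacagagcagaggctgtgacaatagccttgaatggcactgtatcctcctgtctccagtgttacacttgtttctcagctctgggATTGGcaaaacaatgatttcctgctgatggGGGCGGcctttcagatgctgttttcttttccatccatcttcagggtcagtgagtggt
Prr5l chr2:101838981-101839230 (-): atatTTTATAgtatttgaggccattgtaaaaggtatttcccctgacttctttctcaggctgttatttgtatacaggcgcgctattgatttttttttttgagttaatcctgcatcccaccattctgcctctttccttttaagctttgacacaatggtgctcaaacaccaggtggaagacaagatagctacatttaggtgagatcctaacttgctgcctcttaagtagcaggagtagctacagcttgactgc
Prr5l chr2:101797708-101797957 (-): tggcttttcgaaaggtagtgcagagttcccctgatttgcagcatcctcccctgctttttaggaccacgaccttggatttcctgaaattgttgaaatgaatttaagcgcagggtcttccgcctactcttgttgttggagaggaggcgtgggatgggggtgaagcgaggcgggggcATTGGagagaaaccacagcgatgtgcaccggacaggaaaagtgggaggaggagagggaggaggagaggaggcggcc
The Mtor window held 2 GC boxes, 4 CCAAT boxes and 19 CpG dinucleotides. The 3 Prr5l windows, in the order shown, held 1, 2 and 10 CpG dinucleotides, with 1 GC box and 1 CCAAT box in the first, 1 TATA box in the second and 1 CCAAT box in the third. Over all 32851 windows of this length the median was 6 CpG dinucleotides, and 32.7% held a GC box, 33.8% a CCAAT box and 12.4% a TATA box. Among the 11 member windows these motifs were present in 7, 5 and 1. Those windows are not separate promoters. The Mapkap1 windows (chr2:34406521-34406770 and chr2:34406601-34406850) overlap, so a motif can count more than once, and Prr5 and Prr5l also have several. GC content ran from 37.6% upstream of Rptor to 81.2% upstream of Rictor, against a median of 52.4%. These matches describe the reference sequence only.

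The main question was whether risperidone changed the expression of the complexes. No member passed in either strain. With limma 0 of 20 probe sets were called in A/J, where the share called over all 45037 probe sets was 0%, and 0 of 20 in DBA/2J, where it was 0.04%. At an unadjusted p under 0.05 there were 2 of 20 in A/J, against 5.51% of all probe sets, and 2 of 20 in DBA/2J, against 10.7%. The member median was 0.02 in A/J and 0.05 in DBA/2J, beside 0 and -0.0050 over all probe sets. Over both strains together 0 of 20 were called, against 0.0266% of all, and 2 of 20 had an unadjusted p under 0.05, against 6.9%. By role, 1 of 2 Rptor, 5 of 9 shared and 5 of 9 complex 2 probe sets were higher after risperidone in A/J, and 1 of 2, 5 of 9 and 7 of 9 in DBA/2J. The A/J values include the 3 risperidone arrays with 27.9% to 39.1% DBA/2J signal. Leaving these out keeps only 1 A/J risperidone array, so the group has no spread of its own. The member median in A/J was then -0.02, with 8 higher and 12 lower, against 11 and 9 with all arrays. The sign changed in 7 of 20, and the Rictor median went from 0.01 to -0.1.

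Mtor itself, the catalytic subunit of both complexes, was measured with little spread. By its brightest probe set (1417592_PM_at) the levels were 8.61, 8.54, 8.65 and 8.52 in A/J control mice and 8.64, 8.66, 8.68 and 8.68 in A/J risperidone mice, replicates 1 to 4. In DBA/2J they were 8.65, 8.65, 8.70 and 8.59 in control mice and 8.66, 8.69, 8.60 and 8.66 in risperidone mice. All 16 arrays thus lay within 0.18 of each other, and the 4 groups overlapped. The log2 difference was 0.09 ± 0.07 (SE, n = 4 per group, adjusted p = 0.975) in A/J and 0.0050 ± 0.07 (adjusted p = 0.985) in DBA/2J. Averaged over the strains, the 95% confidence interval of the ratio of risperidone to control ran from 0.964 to 1.10. The other 2 Mtor probe sets had differences of 0.03 and 0.23 in A/J and of 0.04 and -0.04 in DBA/2J. The dimmer of them (1446185_PM_at), with a mean of 4.40, gave the value of 0.23, and its lowest array was A/J control replicate 1 at 3.77.

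**Figure D1:**
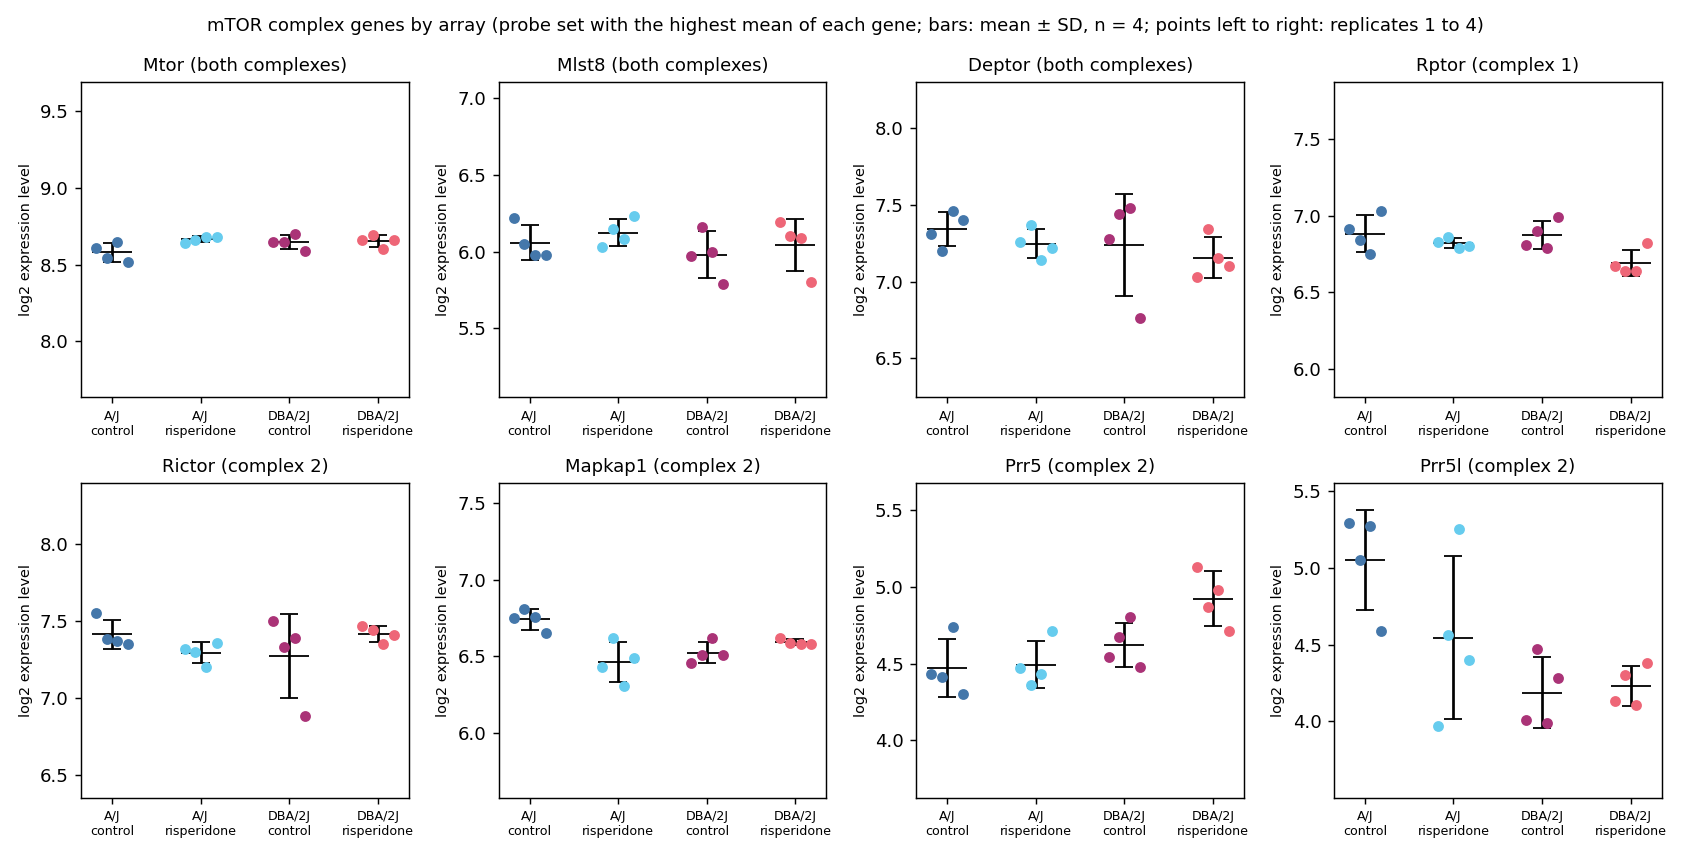
Log2 expression level (vertical axis, spanning the same number of log2 units in each panel) of the 8 genes in the 4 groups on the horizontal axis, by each gene's probe set with the highest mean. Points are arrays in the order of replicates 1 to 4 and bars are the mean ± SD (n = 4); Mtor varied least, between 8.52 and 8.70, and Prr5l most, between 3.97 and 5.29.

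The other shared subunits showed wider spread and no call. Mlst8 had levels between 5.79 and 6.23 by its brighter probe set. Group means were 6.06 ± 0.11 (SD, n = 4) and 6.12 ± 0.09 in A/J control and risperidone mice, and 5.98 ± 0.15 and 6.05 ± 0.17 in DBA/2J. The risperidone difference was 0.07 in each strain, with adjusted p = 0.835 in DBA/2J and 0.996 in A/J. The second Mlst8 probe set had differences of -0.07 and 0.21, with 1 DBA/2J control array at 5.08 and the other 3 at 5.36 to 5.99. Deptor had 4 probe sets, of which 3 were lower after risperidone in each strain, though not the same 3. The exception was 1459719_PM_at in A/J (0.03) and 1428622_PM_at in DBA/2J (0.09). Over the 4 probe sets the differences ranged from -0.10 to 0.03 in A/J (adjusted p from 0.994 to 0.997). In DBA/2J they ranged from -0.09 to 0.09 (adjusted p from 0.778 to 0.840).

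Rptor, the substrate-binding scaffold of complex 1, was described differently by its 2 probe sets. By the brighter one (1430784_PM_a_at) the levels were 6.91, 6.84, 6.75 and 7.03 in A/J control mice and 6.83, 6.86, 6.79 and 6.80 after risperidone. In DBA/2J they were 6.81, 6.90, 6.79 and 6.99 in control mice and 6.67, 6.64, 6.64 and 6.82 after risperidone. In DBA/2J 3 of 4 risperidone arrays were below all control arrays, while replicate 4 overlapped them. The DBA/2J difference was -0.18 ± 0.08 (SE, n = 4 per group, adjusted p = 0.436) and the A/J difference -0.06 ± 0.08 (adjusted p = 0.994). By the second probe set the differences had the opposite sign, 0.09 ± 0.09 in DBA/2J (adjusted p = 0.767) and 0.13 ± 0.09 in A/J (adjusted p = 0.968).

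Rictor, the scaffold that defines complex 2, had 5 probe sets and no call. By the brightest (1435698_PM_at) the levels were 7.55, 7.38, 7.37 and 7.35 in A/J control mice and 7.32, 7.30, 7.20 and 7.36 after risperidone. In DBA/2J they were 7.50, 7.33, 7.39 and 6.88 in control mice and 7.47, 7.44, 7.35 and 7.41 after risperidone. The array at 6.88, DBA/2J control replicate 4, lay below all others. Over the 5 probe sets the risperidone differences ranged from -0.12 to 0.25 in A/J and from 0 to 0.20 in DBA/2J, with adjusted p of at least 0.911 and 0.615.

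That array was the lowest of its group in 5 of 5 Rictor probe sets, 2 of 2 for Mlst8, 2 of 3 for Mtor, 2 of 4 for Deptor and 1 of 1 for Prr5, and in none of those for Rptor, Mapkap1 and Prr5l. This made 12 of 20, while over all probe sets it was the lowest in 33.6%. Without it the Rictor median in DBA/2J went from 0.14 to 0.01, with a range of -0.08 to 0.03, and the median of the 20 members from 0.05 to -0.0063. With the array left out, 10 of the 20 were higher and 10 lower after risperidone in DBA/2J.

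**Figure D2:**
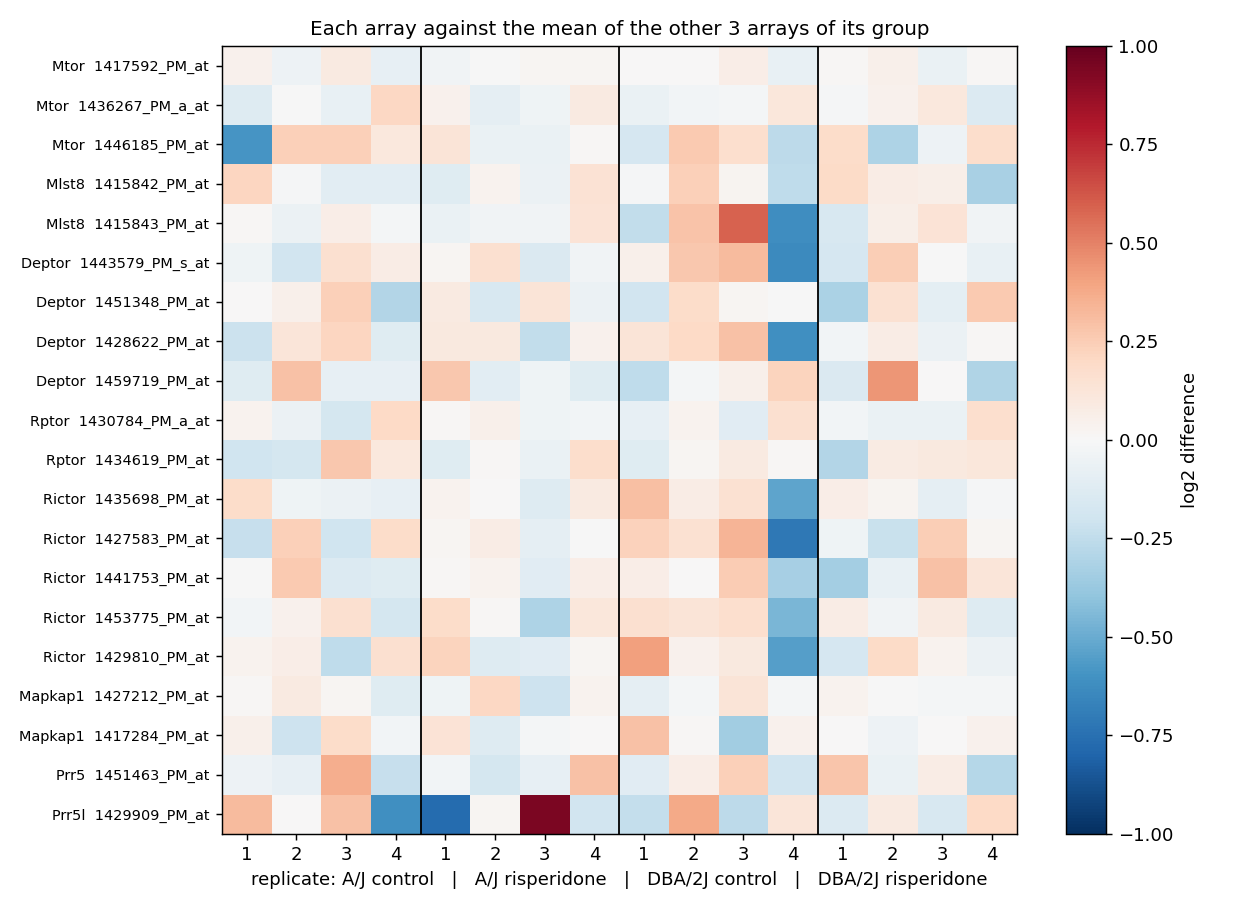
Each cell is the log2 difference between an array (horizontal axis, replicates 1 to 4 within the 4 groups) and the mean of the other 3 arrays of its group, for the 20 probe sets on the vertical axis. DBA/2J control replicate 4 was the lowest of its group in 12 of 20, and A/J risperidone replicate 3 was 0.94 above the other 3 arrays of its group for Prr5l.

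Mapkap1 encodes Sin1, a subunit needed to assemble complex 2 that also recruits its substrates. By the probe set with the higher mean (1427212_PM_at) the levels were 6.75, 6.81, 6.76 and 6.65 in A/J control mice and 6.43, 6.62, 6.31 and 6.49 in A/J risperidone mice. The groups did not overlap, as in 2 of the 20 member probe sets in A/J against 4.42% of all probe sets. The second of these was the Rictor probe set 1429810_PM_at, at 5.20 to 5.51 in control and 5.55 to 5.81 in risperidone mice. The Mapkap1 difference was -0.28 ± 0.08 (SE, n = 4 per group, adjusted p = 0.504). In DBA/2J the levels were 6.46, 6.51, 6.62 and 6.51 in control and 6.62, 6.59, 6.58 and 6.58 in risperidone mice, with a difference of 0.07 ± 0.08 (adjusted p = 0.772).
The difference between the strains in this response was 0.35 ± 0.11 (adjusted p = 0.405) and did not pass. With replicate 3 as the only A/J risperidone array kept, the one without intermediate strain markers, the A/J difference was -0.43, from 1 array against 4. The second Mapkap1 probe set (1417284_PM_at) had differences of 0.07 ± 0.09 in A/J and -0.03 ± 0.09 in DBA/2J, so the lower values were seen by 1 of 2 probe sets.

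Prr5 and Prr5l encode the Protor proteins, which bind Rictor in complex 2. Both are represented by 1 dim probe set, with means above those of 27.2% and 24.7% of all probe sets, and no detection calls came with the values. Prr5 was at 4.54, 4.67, 4.80 and 4.48 in DBA/2J control mice and at 5.13, 4.87, 4.98 and 4.71 after risperidone. Risperidone replicates 1, 2 and 3 were above every control array. The difference was 0.30 ± 0.11 (SE, n = 4 per group, adjusted p = 0.372). In A/J the levels were 4.43, 4.41, 4.74 and 4.30 in control mice and 4.47, 4.36, 4.43 and 4.71 after risperidone, a difference of 0.02 ± 0.11 (adjusted p = 0.997).

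**Figure D3:**
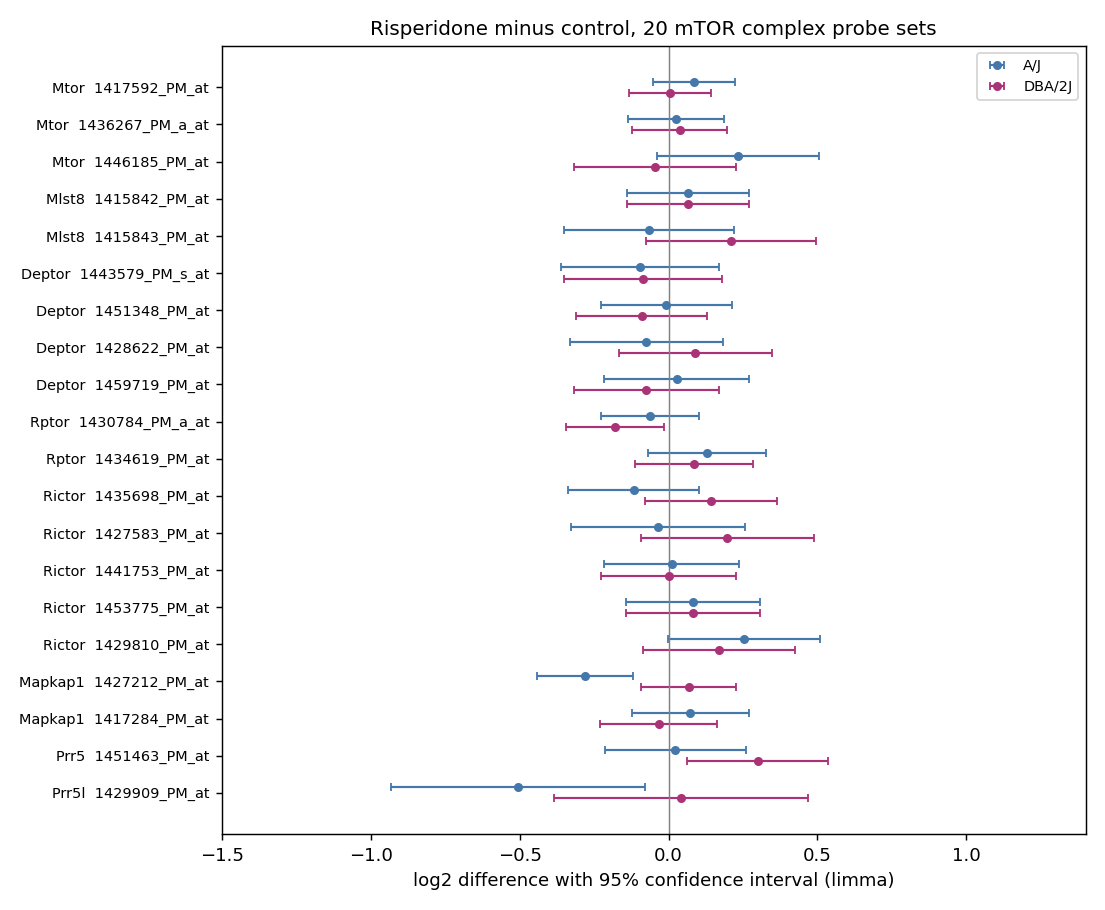
Log2 difference between risperidone and control mice (horizontal axis; point, with the 95% confidence interval from limma) for the 20 probe sets on the vertical axis, in A/J (blue) and DBA/2J (purple), n = 4 per group. None passed an adjusted p of 0.05; the extremes were Prr5l at -0.51 in A/J and Prr5 at 0.30 in DBA/2J.

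The strains were compared next in control mice. Prr5l was the only member called, by its 1 probe set, with the lower level in DBA/2J. Whether the probes match both strains equally well was not tested, here or for the other strain differences. The Prr5l levels were 5.29, 5.05, 5.27 and 4.59 in A/J and 4.01, 4.47, 3.99 and 4.28 in DBA/2J. The groups did not overlap, although A/J replicate 4 came within 0.12 of the highest DBA/2J array. The mean was 5.05 ± 0.33 (SD, n = 4) in A/J and 4.19 ± 0.23 in DBA/2J, a 1.82-fold lower level (log2 difference -0.86 ± 0.20 SE, 95% confidence interval -1.29 to -0.44, adjusted p = 0.0203). With 1 of 20 probe sets called, the share of 5% was near the 3.87% called among all 45037, of which 1.86% were lower. At an unadjusted p under 0.05 there were 3 of 20, against 17.7%.
Leaving out single arrays ended this call in 4 of 16 cases. The difference was -0.78 (adjusted p = 0.0700) with replicate 1 of the A/J controls removed and -0.79 (adjusted p = 0.0723) with replicate 3. It was -0.80 (adjusted p = 0.0571 and 0.0544) with replicate 1 or 3 of the DBA/2J controls removed. A fit with 3 regional scores (mean levels of projection neuron, choroid plexus and thalamus markers) gave -0.35 ± 0.26 (adjusted p = 0.673). That fit called 289 of all 45037 probe sets, against 1745 without the scores, so the loss of a call was not particular to Prr5l.

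Marker levels of cell types and regions also differed between these control arrays, for 8 lists given as the mean log2 level over their markers. The 7 oligodendrocyte markers had levels of 8.59 to 9.28 (A/J) and 8.00 to 8.41 (DBA/2J), and the 7 microglia markers levels of 6.59 to 6.76 (A/J) and 6.08 to 6.32 (DBA/2J), both without overlap. Group means were also higher in A/J for choroid plexus (5.31 against 4.71), thalamus (6.67 against 6.06), striatal projection neurons (6.44 against 6.17) and astrocytes (8.68 against 8.62). They were lower in A/J for endothelial cells (6.72 against 6.81) and cortex (8.41 against 8.45). The fit with regional scores holds the projection neuron, choroid plexus and thalamus markers; the part of oligodendrocytes, microglia and the other lists in the Prr5l result was not tested.

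After risperidone Prr5l was at 3.97, 4.56, 5.25 and 4.40 in A/J and at 4.13, 4.30, 4.11 and 4.38 in DBA/2J. Replicates 1, 2 and 4 of A/J, the arrays with intermediate strain markers, lay below the lowest A/J control array (4.59), and replicate 3, whose markers were those of A/J, lay at 5.25 among the A/J control arrays. The risperidone difference in A/J was -0.51 ± 0.20 (SE, n = 4 per group, adjusted p = 0.824). Without those 3 arrays, which leaves replicate 3 as the only A/J risperidone array, it was 0.20, a value with no spread of its own in that group. It was 0.04 ± 0.26 when the share of DBA/2J signal was in the model (adjusted p = 0.9996). Within groups this share varied most in A/J risperidone mice, from 0.584% to 39.1%. That fit therefore rests largely on the same arrays and is not a separate check. In DBA/2J the risperidone difference was 0.04 ± 0.20 (adjusted p = 0.956).

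**Figure D4:**
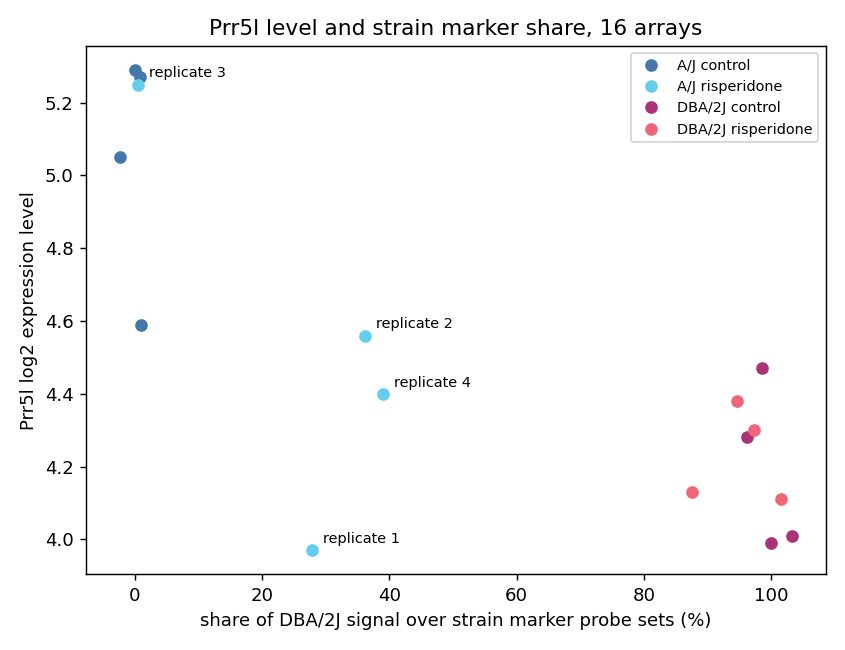
Prr5l log2 level (vertical axis) against the share of DBA/2J signal over strain marker probe sets in percent (horizontal axis) for the 16 arrays, coloured by group. A/J risperidone replicate 3 (0.584%) lies at 5.25 with the A/J control arrays, and replicates 1, 2 and 4 (27.9%, 36.2% and 39.1%) lie between 3.97 and 4.56.

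The remaining members did not pass between strains. In control mice Mapkap1 (1427212_PM_at) was at 6.74 ± 0.07 (SD, n = 4) in A/J and 6.53 ± 0.07 in DBA/2J without overlap (-0.22 ± 0.08 SE, adjusted p = 0.133), while its second probe set had a difference of the opposite sign (0.11 ± 0.09, adjusted p = 0.588). Non-overlapping groups were seen in 2 of 20 member probe sets, against 9.33% of all. Rptor, by contrast, had differences of -0.01 and 0.02 by its 2 probe sets (adjusted p = 0.967 and 0.933), and the brightest Mtor probe set one of 0.07 ± 0.07 (adjusted p = 0.637). The dim Mtor probe set had a value of 0.29 ± 0.13 (adjusted p = 0.257). Among the inhibitor and scaffold genes, Deptor ranged from -0.14 to 0.02 over its 4 probe sets and Mlst8 from -0.19 to -0.08 over 2, and Prr5 was at 0.15 ± 0.11 (adjusted p = 0.514). The 5 Rictor probe sets ranged from -0.22 to 0.07, and from -0.04 to 0.21 without DBA/2J control replicate 4. Over the 20 members the median was -0.08, beside 0.01 over all probe sets, with 7 higher and 13 lower in DBA/2J; without that array it was -0.01.

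In risperidone mice 0 of 20 probe sets were called, against 0.782% of all, and 1 of 20 had an unadjusted p under 0.05, against 9.43%. In 0 of 20 the groups did not overlap, against 7.68%. Prr5 had the largest value, higher in DBA/2J at 4.92 ± 0.18 (SD, n = 4) than in A/J at 4.49 ± 0.15 (0.43 ± 0.11 SE, adjusted p = 0.103), and passed with array weights (0.42 ± 0.10, adjusted p = 0.0479). The lowest DBA/2J array equalled the highest A/J array, both at 4.71. Prr5l differed by -0.32 ± 0.20 (adjusted p = 0.694), and by -0.51 to -0.08 when single arrays were left out, at the ends A/J risperidone replicates 1 and 3. The A/J arrays in this comparison include the 3 with intermediate strain markers; without them 1 A/J array is left (replicate 3), and the differences from it were 0.49 for Prr5 and -1.02 for Prr5l.

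**Figure D5:**
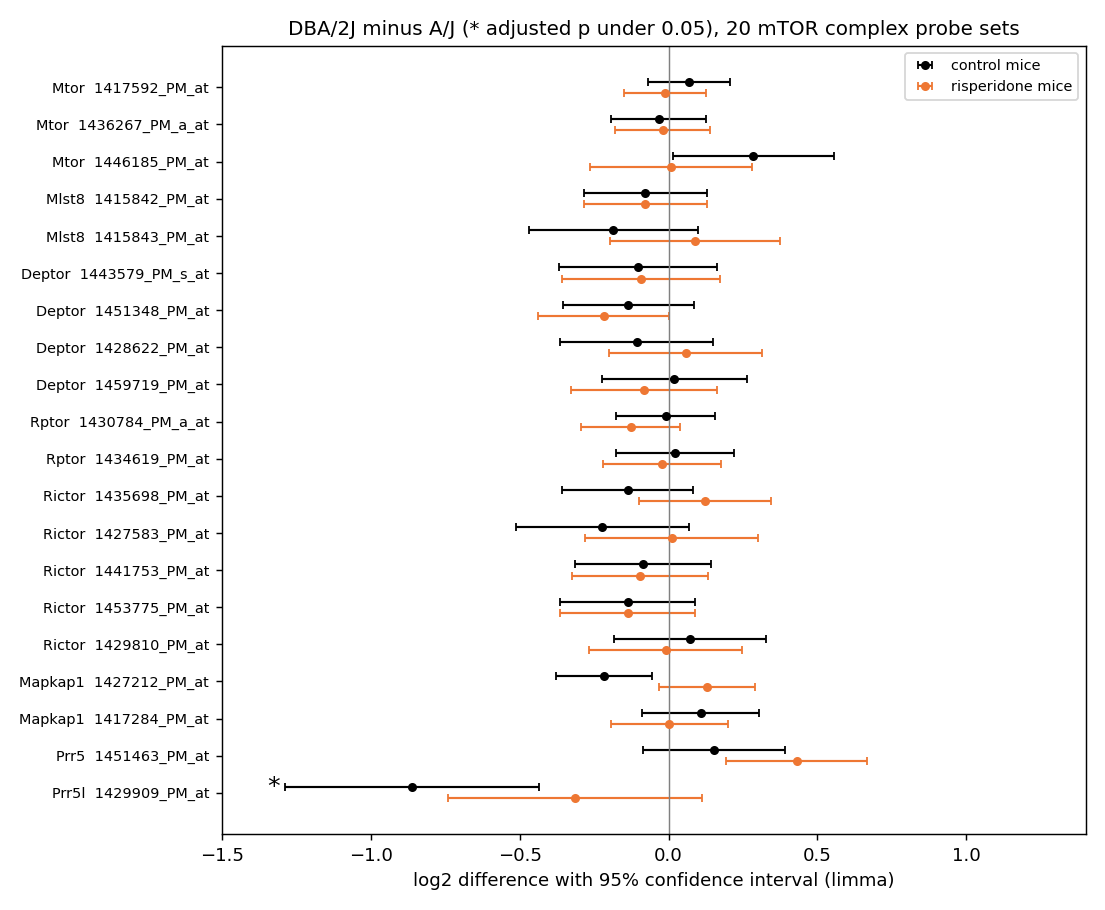
Log2 difference between DBA/2J and A/J (horizontal axis; point, with the 95% confidence interval from limma) for the 20 probe sets on the vertical axis, in control mice (black) and risperidone mice (orange), n = 4 per group. The asterisk marks the only call, Prr5l in control mice at -0.86; Prr5 in risperidone mice was at 0.43.

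Whether the strains differed in their response to risperidone was tested by the interaction. No member passed (0 of 20, against 0% of all probe sets), and 1 of 20 had an unadjusted p under 0.05, against 9.19% of all. The members' differences ranged from -0.28 to 0.55, the latter for Prr5l (0.55 ± 0.29 SE, adjusted p = 0.572). The Prr5l value turned to -0.16 without A/J risperidone replicates 1, 2 and 4, which leaves 1 array in that group, and ranged from 0.36 to 0.78 when single arrays were left out, at the ends A/J risperidone replicates 1 and 3. For the brightest Mtor probe set the value was -0.08 ± 0.09 (adjusted p = 0.802), and its 95% confidence interval ran from -0.28 to 0.12.

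The wider pathway was described by 5 lists of other genes, 56 of 67 with a probe set of their own. No gene of these lists passed for risperidone in either strain or over both, where 0%, 0.0643% and 0.0526% of all genes did, nor in the interaction (0%) or between strains in risperidone mice (1.02%). Between strains in control mice 6 of 56 genes were called, 3 higher and 3 lower in DBA/2J, which is 10.7% against 5.31% of all genes. Of these, 4 belong to the 22 measured brakes and GTPases upstream of complex 1. A gene counted as called where at least 1 of its probe sets passed. The lists had more probe sets per gene than the whole array: 16 for 7 genes, 22 for 8, 43 for 22, 22 for 10 and 19 for 9. All 17097 genes had 28898. The shares were not adjusted for this. Rragd, a Rag GTPase that recruits complex 1 to the lysosome, was lower in DBA/2J by its brightest probe set (-0.43 ± 0.09 SE, n = 4 per group, adjusted p = 0.0099). Slc38a9, a lysosomal arginine sensor, was higher (0.41 ± 0.10, adjusted p = 0.0210).
Lamtor1, which anchors the Rag GTPases, was lower by 1 of its 2 probe sets (-0.60 ± 0.07, adjusted p = 4.2e-05), while the brighter one was at 0.04 (adjusted p = 0.822). Depdc5, a subunit of the GATOR1 complex that restrains the Rag GTPases, was higher by 1 of 5 probe sets (0.41 ± 0.11, adjusted p = 0.0371).

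Of 8 measured genes that carry growth factor signals to the complexes, only Pik3ca, a catalytic subunit of phosphoinositide 3-kinase, was called, by 1 of 6 probe sets (0.37 ± 0.10 SE, adjusted p = 0.0436); another lay at -0.34 (adjusted p = 0.0601). Of 9 kinases phosphorylated by complex 2, Prkcd (protein kinase C delta) was lower in DBA/2J by 1 of 2 probe sets (-1.97 ± 0.42, adjusted p = 0.0096). Prkcd is also among the thalamus markers, whose levels were higher in A/J control replicate 3, at 7.49, than in any other array. Complex 1 substrates, such as the 4E-binding proteins, were higher after risperidone in 6 of 10 genes in A/J (median 0.02) and in 7 of 10 in DBA/2J (median 0.07), counted by each gene's brightest probe set. The kinases phosphorylated by complex 2 were higher in 4 of 9 (median -0.01) and 5 of 9 (median 0.03). None of the 10 measured complex 1 substrates and none of the 7 partners and assembly factors passed in any of the 6 comparisons.

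Genes whose levels followed those of a member most closely over the 16 arrays were named as a description. For Mtor these were Fech, Timm23 and Sult1a1, with Pearson coefficients between 0.821 and 0.845, and of 0.758, 0.794 and 0.793 for deviations from the group means. For Rptor they were Slc8a1, Sstr2 and 4933421H12Rik, at 0.841, 0.833 and 0.801. Without the 2 arrays farthest from the median of Mtor or Rptor, the Mtor values were 0.692, 0.715 and 0.722. Those of Rptor were then 0.703, 0.814 and 0.612. Rictor was followed by Nop10, Jtb and Mrpl13 at 0.956, 0.955 and 0.952; without the 2 arrays farthest from the Rictor median these were 0.830, 0.831 and 0.800. The 16 arrays differ in strain and treatment and include the low DBA/2J control replicate 4. The genes were picked for the highest coefficients among 28898 probe sets, and whether these exceed chance was not tested.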

How the data were processed

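The authors deposited 1 table of log2 expression levels for 16 arrays, normalized by RMA (version not given) per the submitters' processing notes; scanning and filters are not given in the sources used here. RMA fits all arrays jointly and compresses differences at low levels. The array has 45141 probe sets, of which 104 controls were removed and 45037 tested; 28898 name 1 gene, 551 several and 15588 none. With limma 3.58.1 in R 4.3.3 (lmFit, eBayes), 1 mean per group was estimated from the 16 arrays together, and 6 contrasts were tested, two-sided, with Benjamini-Hochberg adjustment over all probe sets and a threshold of 0.05; figures used matplotlib 3.10.9. SE is limma's, SD that of 4 arrays. P values set a difference between groups against the spread of arrays within the groups. Each array is 1 mouse, so differences between mice and errors of measurement cannot be told apart in that spread.

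The fit was tested on simulated data. All members were named with all probe sets; of other pathway lists, called genes and up to 4 per list and comparison; and the 3 genes most like Mtor, Rptor and Rictor. Members and lists were chosen with earlier results of these data known. The share of DBA/2J signal is the median position of an array's unlogged values between the strains' control means over up to 49 probe sets (log2 difference at least 1.5, level at least 7, adjusted p under 0.01). Leaving out each array, 5 arrays in doubt (A/J risperidone replicates 1, 2 and 4, DBA/2J risperidone replicate 1, DBA/2J control replicate 4), other scalings, filters, covariates and variance models were tried as alternatives. The regional scores are means of striatal, choroid plexus and thalamus markers. Replicate numbers were not treated as pairs.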

Additional observations from a re-analysis of the deposited data

Results flagged for a closer look

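Of 80 combinations of probe set and group, 8 held an array that stood far from the other 3, by a test that chance alone meets in about 1 of 20 groups. Rptor was at 6.82 in DBA/2J risperidone replicate 4 against 6.64 to 6.67 in the others (1430784_PM_a_at), and at 6.14 in replicate 1 of that group against 6.42 to 6.44 (1434619_PM_at). Mtor was at 3.77 in A/J control replicate 1 against 4.29 to 4.39 (1446185_PM_at). Mlst8 was at 5.77 in A/J risperidone replicate 4 against 5.62 to 5.64 (1415843_PM_at). Deptor was at 5.54 in A/J risperidone replicate 3 against 5.76 to 5.80 (1428622_PM_at), and at 5.25 in A/J control replicate 2 against 4.94 to 4.97 (1459719_PM_at). Rictor was at 7.55 in A/J control replicate 1 against 7.35 to 7.38 (1435698_PM_at), and at 6.10 in DBA/2J control replicate 4 against 6.54 to 6.57 (1453775_PM_at).

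In 2 of the 20 member probe sets all 4 risperidone arrays of A/J lay below their control mean and all 4 of DBA/2J above theirs. The share of all probe sets with such a pattern was not counted. The interaction was 0.26 (adjusted p = 0.597) for Rictor (1435698_PM_at) and 0.35 (adjusted p = 0.405) for Mapkap1 (1427212_PM_at), so neither passed the test of the difference. For Rictor the DBA/2J control mean includes the low replicate 4 (6.88). Risperidone replicate 3 (7.35) lay below the mean of the other 3 control arrays, and without replicate 4 the interaction was 0.13 (adjusted p = 0.732).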

How the results depend on the processing

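The count of called members stayed at 0 under every alternative run for risperidone in A/J (28), in DBA/2J (28), over both strains (27) and for the interaction (27). Between strains in control mice it was 1 and became 0 among probe sets above the median level, which leaves Prr5l out, with the DBA/2J share as a covariate and with 3 regional scores; leaving out single arrays gave 0 to 1. Between strains in risperidone mice it was 0 and became 1, for Prr5, with array weights. The Prr5l strain difference of -0.86 turned to 1.23 ± 0.77 with the DBA/2J share, which by construction nearly equals the strain in control arrays. With the 3 regional scores it was -0.35 ± 0.26. The Prr5l difference without single arrays ranged from -1.02 to -0.78.

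In their deviations from the group means over all probe sets, same-numbered arrays correlated at -0.06 to 0.17. In each comparison 1 or 2 of 4 pairs were over 0.1. The closest of 4 possible matches bore the same number in 6 of 8 arrays for risperidone in DBA/2J. It did so in 5 of 8 for the strains in control mice, and in 2 of 8 for each of the other comparisons. Whether replicate numbers mark a shared step was not tested. With the number as a replicate block the counts of called members were 0, 0, 0, 0, 1 and 0, as without it, and Prr5l kept its call (-0.86, adjusted p = 0.0258). With 4 arrays a group, the 95% interval of a member's risperidone difference reached 0.23 to either side at the median and 0.43 at the widest, before any adjustment over probe sets.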
